A study of Mus musculus with 25 samples.

Results

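The genes described here are 36 genes of cholesterol and fatty acid synthesis that are linked to the SREBP transcription factors. They were taken by symbol from a fixed list of names, through the annotation of the array, and are 36 of the 19938 genes with a named probe set. All 36 passed the filter on dim probe sets. They are treated as a cholesterol arm of 16 genes (Hmgcs1 to Dhcr7 along the pathway), a fatty acid arm of 16 genes (Acly to Dgat2, with glycolytic and desaturase genes) and 4 regulators (Srebf1, Srebf2, Insig1 and Mlxipl). Expression was measured on 25 single-colour arrays of frozen liver from mice of an FVB;129 background. By the series text, Cre recombinase driven in hepatocytes by the albumin promoter deletes floxed Rb or p53. The deletion is thus aimed at hepatocytes, and the other cells of the liver are meant to keep both genes. Whether the WT mice carried Cre or floxed alleles is not stated. DEN (diethylnitrosamine, a carcinogen that hepatocytes turn into a DNA-alkylating agent) was given once, as 20 mg/kg into the peritoneum, to mice aged 14 days, and the liver was taken 24 h later.

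Of the 6 groups, by their labels, DKO DEN (5 arrays) had both Rb and p53 deleted, p53KO DEN (5 arrays) p53, RbKO DEN (4 arrays) Rb, and WT DEN (5 arrays) neither. How complete the deletion was in hepatocytes is not known here. DKO untreated (3 arrays) and WT untreated (3 arrays) had no DEN. The labels give their treatment as none, while the series text speaks of saline. No untreated p53KO or RbKO arrays were analysed here, so the response to DEN can be taken in DKO and WT only. The labels do not say that the arrays of a group came from separate animals, so the spread behind each p-value is that among these samples and may be technical, and the precision is limited by the number of arrays. A lower signal in whole liver can come from fewer cells of a type or from less RNA per cell, and the 2 cannot be told apart here. All values are log2 signals, and a difference of 1 is a 2-fold change.

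Cholesterol is built from acetyl-CoA through mevalonate, isoprenoids, squalene and lanosterol, and fatty acids from the same acetyl-CoA through malonyl-CoA, followed by elongation, desaturation and esterification to triglyceride. In liver the SREBP-2 factor (from Srebf2) mainly drives the cholesterol genes, and SREBP-1c (from Srebf1) the fatty acid genes, together with LXR receptors and, on a carbohydrate diet, with ChREBP (from Mlxipl). Insig proteins hold the SREBP precursors in the endoplasmic reticulum when sterols are plentiful.

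Promoter windows of 250 bases before the transcription start were available from RefSeq (GRCm38.p6) for 30 of the 36 genes, 39 windows in all. Windows of 4 genes are shown, since these genes carry the contrasts below: Fads2 and Elovl5 fell after DEN in DKO liver, as did Hmgcs1, while Idi1 rose. Capitals mark TCACNCCAC (the core of a sterol regulatory element), CACGTG (an E-box) and CCAAT (the box bound by NF-Y), searched on both strands.
Fads2, chr19:10101504-10101753, minus strand: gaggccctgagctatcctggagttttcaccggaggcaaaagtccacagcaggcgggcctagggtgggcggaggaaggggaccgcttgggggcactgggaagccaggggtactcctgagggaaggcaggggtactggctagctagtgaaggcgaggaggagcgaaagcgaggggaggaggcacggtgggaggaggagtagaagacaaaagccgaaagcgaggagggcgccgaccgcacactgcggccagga
Elovl5, chr9:77917115-77917364, plus strand: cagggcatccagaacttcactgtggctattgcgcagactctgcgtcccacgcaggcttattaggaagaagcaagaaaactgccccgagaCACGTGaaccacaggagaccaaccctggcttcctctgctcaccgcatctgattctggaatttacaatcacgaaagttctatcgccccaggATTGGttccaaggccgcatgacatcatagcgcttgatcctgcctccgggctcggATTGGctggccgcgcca
Hmgcs1, chr13:119690101-119690350, plus strand: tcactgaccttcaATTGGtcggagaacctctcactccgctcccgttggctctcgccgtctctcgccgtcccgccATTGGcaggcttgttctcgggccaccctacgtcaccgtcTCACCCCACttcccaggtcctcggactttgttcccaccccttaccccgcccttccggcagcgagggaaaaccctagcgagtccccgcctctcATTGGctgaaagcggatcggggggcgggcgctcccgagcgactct
Idi1, chr13:8885356-8885605, plus strand: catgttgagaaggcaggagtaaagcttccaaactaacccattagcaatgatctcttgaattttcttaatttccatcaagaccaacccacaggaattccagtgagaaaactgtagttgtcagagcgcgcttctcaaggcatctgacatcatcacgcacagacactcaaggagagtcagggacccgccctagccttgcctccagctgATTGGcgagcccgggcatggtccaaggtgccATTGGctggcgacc
CCAAT stood in 27 of the 39 windows (69.2%), against 33.9% of 32841 mouse promoter windows of the same length. The sterol element core stood in 2 (5.13%, against 1.05%), those of Hmgcs1 and of 1 Mlxipl start, and CACGTG in 6 (15.4%, against 6.02%). None of the 3 motifs is in the Fads2 window, and the Idi1 window holds CCAAT alone. These are matches of letters in short windows.

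By their names the arrays form 3 sets. There are 16 arrays, from each of the 6 groups, in set 1, then 4 in set 2 (WT untreated replicate 3, WT DEN replicates 4 and 5, RbKO DEN replicate 4) and 5 in set 3 (p53KO DEN replicates 3 to 5, DKO DEN replicates 4 and 5). Set 2 stood apart on the first principal component of all genes, which carried 25.8% of the variance, with a mean of 46.6 against -11.8 in set 1 and 0.641 in set 3. The set is therefore a term in each fit, and set 1 is also fitted alone. Rb1, whose probe set is not limited to the deleted part, was called in 0 of 9 comparisons, at 5.18 to 5.82 in DKO DEN and 5.04 to 6.02 in WT DEN, and it checks the genotypes weakly. Rb1 was 5.55 to 6.28 in RbKO DEN, not below WT DEN, and 4.76 to 5.02 in DKO untreated, wholly below the 5.30 to 5.76 of WT untreated. Within set 1 it was called in 3 comparisons: DEN in WT (0.59, adjusted p = 0.00807), DEN in DKO (0.49, adjusted p = 0.00629) and DKO against WT after DEN (-0.49, adjusted p = 0.0136). The mean level of 8 hepatocyte markers, Alb and Apoa1 among them, was 11.53 to 12.08 over all arrays.

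Over the 6 groups, the fatty acid arm differed with DEN more than the cholesterol arm did within set 1, while in set 2 both WT DEN arrays lay above the WT untreated array. The mean log2 signal of the 16 fatty acid genes was 6.08, 6.23, 6.13, 5.71 and 5.79 on the DKO DEN arrays, against 6.63, 6.57 and 6.64 on the DKO untreated arrays. It was 6.24, 6.44, 6.37, 6.29 and 6.57 on the WT DEN arrays, against 6.87, 6.85 and 6.21 on the WT untreated arrays. In DKO the groups do not overlap, whereas in WT the third untreated array, from set 2, lies below all 5 DEN arrays. With Thrsp left out of the mean, that array was at 6.26, above WT DEN replicate 1 (6.24) and below the other WT DEN arrays. The p53KO DEN arrays lay between 5.98 and 6.19 and the RbKO DEN arrays between 6.09 and 6.20, both below every untreated array. Within set 1, all DEN arrays (5.98 to 6.44) lay below all untreated arrays (6.57 to 6.87).

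The cholesterol arm showed a smaller span. Its mean was 5.68, 5.75, 5.68, 5.42 and 5.42 on the DKO DEN arrays, against 5.89, 5.89 and 5.98 on the DKO untreated arrays, which do not overlap. In WT it was 5.79, 5.82, 5.85, 5.33 and 5.48 after DEN, against 5.76, 5.87 and 5.46 untreated, and the 3 arrays of set 2 are the lowest. The p53KO DEN arrays had the highest cholesterol mean of the DEN groups, 5.75 ± 0.13 (SD, n = 5), against 5.65 ± 0.23 in WT DEN (SD, n = 5). The means serve only to compare arrays with each other, since signals of different genes have no common scale, and no test was run on them.

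**Figure D1:**
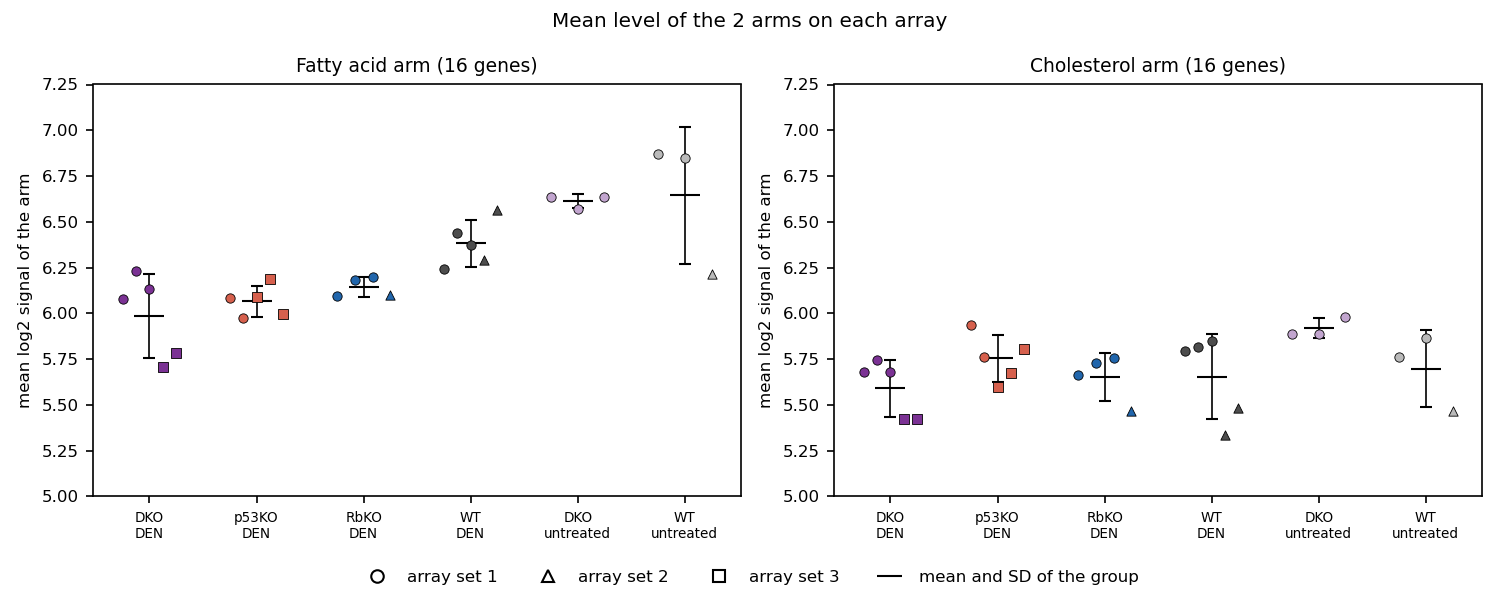
Mean log2 signal of the fatty acid arm (left) and the cholesterol arm (right) on each array, by group; symbols give the array set, and bars the mean and SD of the group. Within set 1 (circles) the fatty acid arm of every DEN array lies below that of every untreated array, while the cholesterol arms overlap.

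In DKO liver, Srebf1, Fads2, Fads1, Elovl5, Dgat2 and Gpam were among the genes that fell after DEN. Of the fatty acid arm, 8 of 16 fell and 0 rose, where 16.5% of all genes tested fell and 4.49% rose (21% called in all). Of the cholesterol arm, 3 of 16 fell and 1 rose. The median difference was -0.54 in the fatty acid arm and -0.33 in the cholesterol arm, against -0.00 over all genes tested. Whether the arms differ from each other was not tested. The share of all genes without overlap between groups is not given, here or for the later comparisons. The array values below therefore only describe each gene. Within set 1, where 18.7% of all genes fell and 6.56% rose, the counts were 8 lower in the fatty acid arm and 4 lower and 1 higher in the cholesterol arm.

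Among the regulators, Srebf1 had 5.70, 5.86, 5.50, 4.77 and 5.17 in DKO DEN, against 6.34, 6.30 and 6.31 in DKO untreated. Every DEN array lies below every untreated one, and Srebf1 fell by 0.82 (SE 0.18, adjusted p = 0.00199), or by 0.63 within set 1. Srebf2 had 5.58, 5.72, 5.43, 5.36 and 5.12 in DKO DEN, against 5.87, 5.82 and 5.92 in DKO untreated. These also do not overlap, and Srebf2 fell by 0.35 (SE 0.12, adjusted p = 0.0407; by 0.29 within set 1), a call that 6 of the 8 arrays ended when left out, up to an adjusted p of 0.127 without DKO untreated replicate 3. Mlxipl (-0.47, adjusted p = 0.11) and Insig1 (-0.13, adjusted p = 0.652) were not called.

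The desaturases of polyunsaturated fatty acids were among the genes with the largest differences. Fads2, the delta-6 desaturase whose promoter is shown above, had 8.66, 8.54, 8.82, 8.09 and 8.11 in DKO DEN, against 10.25, 10.08 and 10.23 in DKO untreated. The gap between the groups is over 1 log2 unit, and Fads2 was 3.42-fold lower (-1.78, SE 0.26, adjusted p = 2.72e-05; -1.51 within set 1). Fads1, the delta-5 desaturase, had 7.60, 7.83, 7.80, 7.03 and 6.75 in DKO DEN, against 8.56, 8.47 and 8.81 in DKO untreated. It fell by 1.20 (SE 0.26, adjusted p = 0.0014), or by 0.87 within set 1. Elovl5, the elongase that acts between these desaturases, had 9.14, 9.56, 9.24, 8.30 and 8.14 in DKO DEN, against 10.04, 10.33 and 10.33 in DKO untreated. No arrays overlap and the set 3 arrays are the lowest for all 3 genes, with Elovl5 at -1.37 (SE 0.34, adjusted p = 0.00473) and -0.93 within set 1. Scd1, the delta-9 desaturase, and Elovl6, the elongase of saturated chains, were not called, at -0.07 and 0.12.

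Genes that esterify fatty acids fell as well. Dgat2, which makes triglyceride from diacylglycerol, had 7.91, 8.16, 7.90, 7.11 and 7.44 in DKO DEN, against 9.33, 9.19 and 9.33 in DKO untreated. Gpam, the mitochondrial acyltransferase that begins glycerolipid synthesis, had 5.47, 5.65, 5.51, 5.59 and 6.04 in DKO DEN, against 6.61, 6.37 and 6.47 in DKO untreated. Neither gene overlapped between the groups. Dgat2 was 2.59-fold lower (-1.37, SE 0.24, adjusted p = 0.000214; -1.29 within set 1) and Gpam 1.94-fold lower (-0.96, SE 0.17, adjusted p = 0.000224; -0.94 within set 1).

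Among the genes that supply and commit carbon, Acly, which releases cytosolic acetyl-CoA from citrate, had 4.92, 5.51, 5.16, 4.74 and 4.78 in DKO DEN, against 5.76, 5.88 and 5.86 in DKO untreated. Acaca, which makes malonyl-CoA, had 6.55, 6.39, 6.70, 6.40 and 6.30, against 7.18, 7.09 and 7.03. Pklr, the liver pyruvate kinase, had 5.17, 5.13, 5.24, 4.85 and 4.69, against 6.32, 5.71 and 6.08. All 3 were lower on every DEN array. Acly fell by 0.71 (SE 0.17, adjusted p = 0.0037), Acaca by 0.71 (SE 0.17, adjusted p = 0.00306) and Pklr by 0.85 (SE 0.20, adjusted p = 0.00364). Within set 1 they fell by 0.63, 0.55 and 0.86. Acaca has a second probe set that differed by -0.22 (adjusted p = 0.343), so the 2 probe sets disagree on the call. None of the 8 fatty acid calls ended when an array was left out. Fasn, the fatty acid synthase, was at -0.32 (adjusted p = 0.0953) and Acss2, which activates acetate, at -0.38 (adjusted p = 0.154). Me1, which yields NADPH, Acacb, which makes malonyl-CoA at mitochondria, and Pnpla3, a lipid droplet enzyme, were at -0.16, 0.01 and -0.13, and Thrsp, an inducer of lipogenesis, was at 0.93, all not called.

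In the cholesterol arm 3 of 16 genes fell and 1 rose, close to the 16.5% and 4.49% of all genes tested. Hmgcs1, which forms HMG-CoA, had 7.63, 7.78, 7.36, 7.05 and 7.30 in DKO DEN, against 8.11, 8.21 and 8.35 in DKO untreated. Fdft1, the squalene synthase, had 7.89, 7.89, 7.61, 6.89 and 7.36, against 8.53, 8.38 and 8.54. Both were lower on every DEN array: Hmgcs1 fell by 0.81 (SE 0.20, adjusted p = 0.00543; by 0.63 within set 1) and Fdft1 by 0.80 (SE 0.18, adjusted p = 0.00227; by 0.69 within set 1). The second probe set of Fdft1 differed by -1.27 (adjusted p = 8.45e-05).

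Idi1, the isomerase that makes dimethylallyl diphosphate, was the member of the arm that rose. It had 4.88, 5.76, 5.57, 5.66 and 5.03 in DKO DEN, against 4.32, 4.69 and 4.88 in DKO untreated. The lowest DEN array and the highest untreated array both round to 4.88, so the groups only just stay apart. The difference was 0.80 (SE 0.20, adjusted p = 0.00505; 0.77 within set 1) and likewise 0.80 (adjusted p = 0.0187) on its second probe set, which correlates with the first at 0.89 over the 25 arrays. Fdps, which makes farnesyl diphosphate, had 5.49, 5.38, 5.50, 5.51 and 5.33 in DKO DEN, against 5.61, 6.02 and 6.12 in DKO untreated. It fell by 0.48 (SE 0.14, adjusted p = 0.0174; by 0.46 within set 1), but not without DKO untreated replicate 3 (adjusted p = 0.115).

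The other 12 genes of the cholesterol arm were not called, from -0.49 (Nsdhl, a C4 demethylation enzyme) to 0.16 (Sqle, squalene epoxidase). Lss, lanosterol synthase, had 3.81, 4.08, 3.75, 4.09 and 3.99 in DKO DEN, against 4.17, 4.43 and 4.59 in DKO untreated (-0.42, adjusted p = 0.0607), and it was called within set 1 at -0.52 (adjusted p = 0.0102). Ebp, the sterol isomerase, was at -0.37, and Sc5d, the sterol C5 desaturase, at -0.45. Mvk, Mvd and Pmvk, which turn mevalonate into isopentenyl diphosphate, were at -0.15, 0.05 and -0.38.

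**Figure D2:**
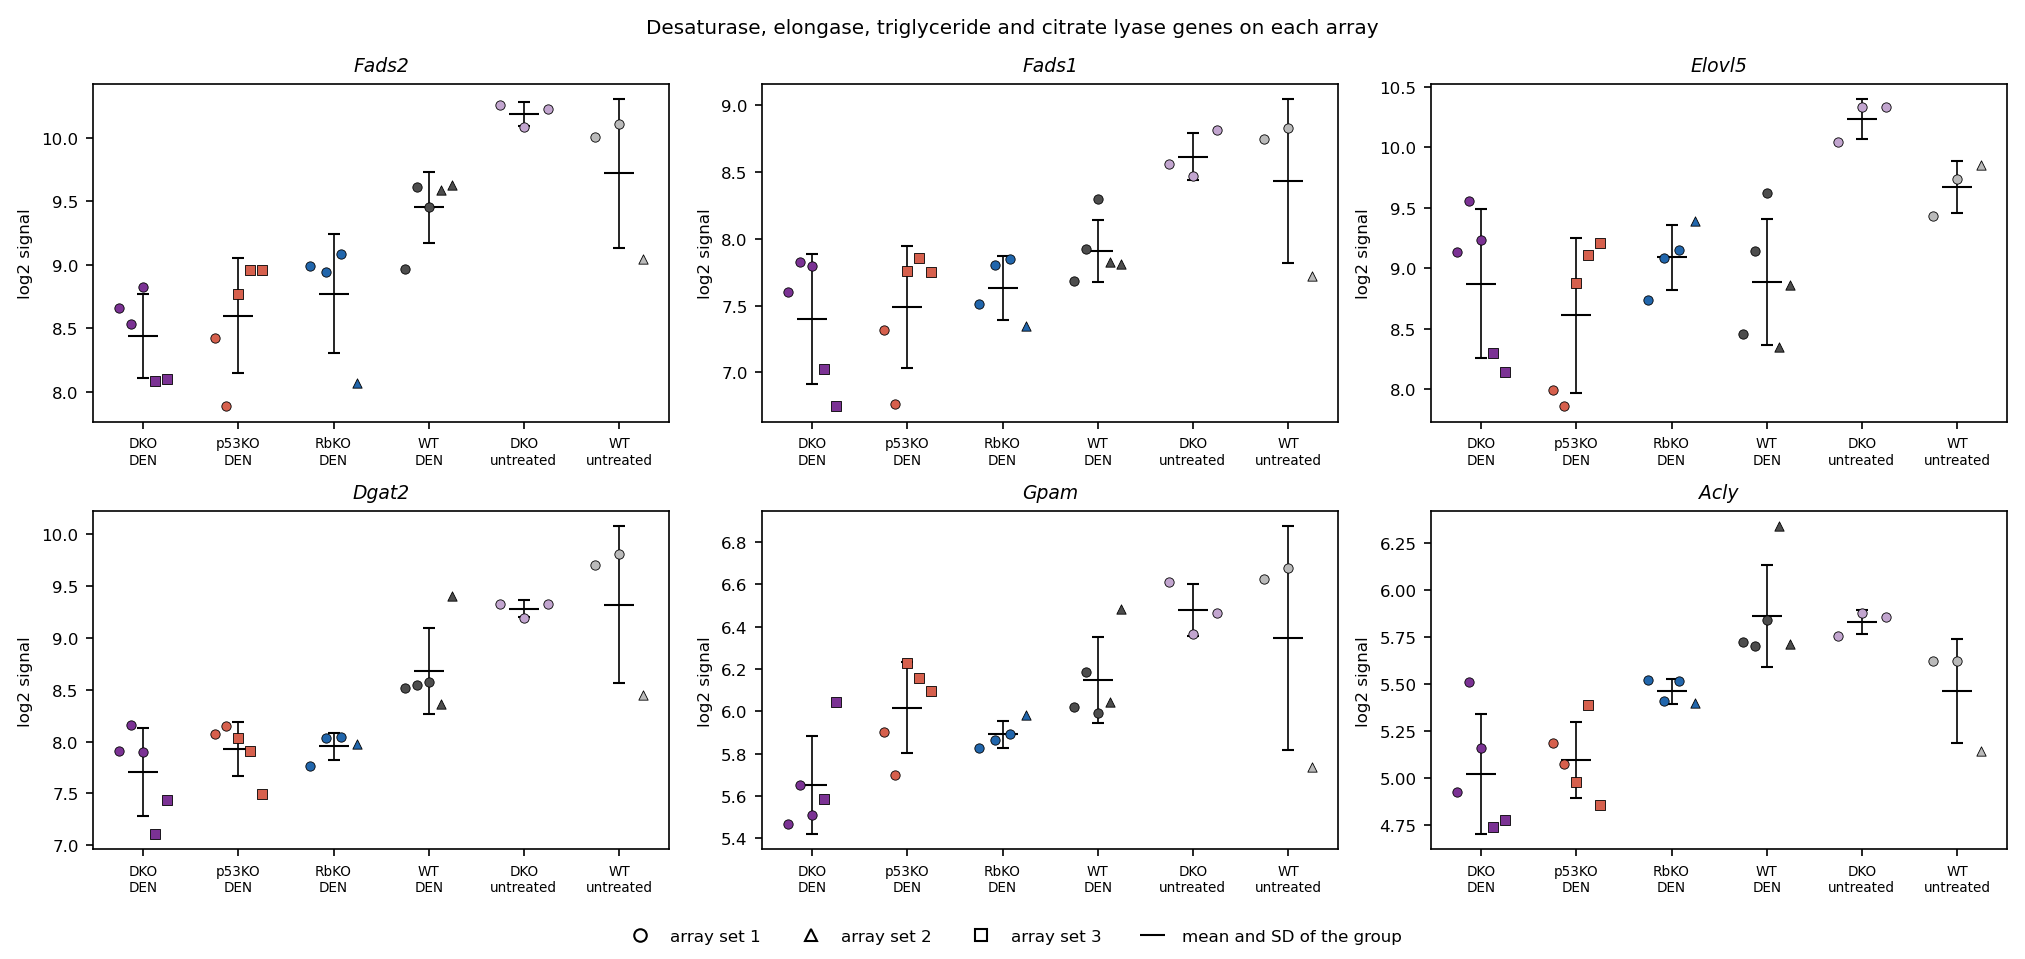
Log2 signal of Fads2, Fads1, Elovl5, Dgat2, Gpam and Acly on each array, by group; symbols give the array set, and bars the mean and SD. The 6 genes are among those called lower in DKO after DEN, and in all 6 every DKO DEN array lies below every DKO untreated array. The share of all genes that separate in this way is not given. The WT untreated array of set 2 (triangle) lies below the others of its group in 5 of the 6 genes, Elovl5 being the exception.

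Among genes of the same pathways outside the 36, those called in DKO were lower after DEN. Of 8 other sterol genes, 4 fell and 0 rose, while 3 had uncalled values above 0. The called ones were led by Mbtps1, the site-1 protease that cleaves SREBP precursors (-1.46, SE 0.17, adjusted p = 2.91e-06), and Scap, their escort protein (-1.18, SE 0.18, adjusted p = 3.64e-05). Of 14 other lipogenic genes, 10 fell and 0 rose, among them Agpat2, an acyltransferase of glycerolipid synthesis, at -1.30 (SE 0.15). Of 7 LXR targets, 6 fell and 0 rose, among them Lpcat3, a lysophospholipid acyltransferase (-1.22), Abcg5, a sterol exporter (-1.07), and Abca1, a cholesterol exporter (-1.05). Of 9 genes of the fasting response, 7 fell and 0 rose, with Pck1, of gluconeogenesis, at -1.86 and Cpt1a, of fatty acid oxidation, at -1.53. Of 14 clock genes, 6 fell and 1 rose, with Nr1d1, a heme receptor of the clock, at -1.80 (SE 0.24). The median over each of these lists lay between -1.05 (LXR targets) and -0.35 (clock genes).

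Markers of some other liver cells were lower in the same comparison. Of 10 endothelial markers, 9 fell and 0 rose, with a mean level of 5.62 to 5.93 in DKO DEN, against 6.61 to 6.71 in DKO untreated. Of 9 stellate cell and matrix markers 6 fell, and of 9 neutrophil and myeloid markers 5 fell. Of 10 macrophage markers 3 fell, of 5 lymphocyte markers 2 fell, of 4 erythroid markers 2 fell and 1 rose, and of 4 cholangiocyte markers 0 were called. Of 8 hepatocyte markers, 2 fell and 1 rose, at 11.55 to 11.61 in DKO DEN, against 11.77 to 11.82 in DKO untreated. Of 10 acute phase genes, 5 rose and 1 fell. The part of these shifts, and of the clock genes, in the values of the lipid genes was not tested.

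In WT liver no member was called after DEN in the fit over all sets, and much of the fatty acid arm had opposite signs in sets 1 and 2. Among all genes 3.99% were called, 2.08% higher and 1.91% lower. With limma, 0 of 16 cholesterol genes, 0 of 16 fatty acid genes and 0 of 4 regulators passed. At an unadjusted p under 0.05 there were 2, 8 and 1. Both cholesterol genes and the regulator were lower, and of the 8 fatty acid genes 5 were lower and 3 higher. The share of all genes at that unadjusted threshold is not given, here or below. The median difference was -0.01 in the cholesterol arm and -0.26 in the fatty acid arm, against 0.02 over all genes.

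Within set 1 (3 WT DEN arrays against 2 WT untreated), 9 fatty acid genes fell and 0 rose, where 11% of all genes were called, 5.96% lower and 5% higher. The 9 were Acaca, Fasn, Fads1, Fads2, Thrsp, Gpam, Dgat2, Pklr and Acss2, and the median of the arm was -0.52. Within set 2 (2 against 1), 13 of the 16 had a positive difference and the median was 0.34. The cholesterol arm had 0 calls in set 1, and its median was 0.05 in set 1 and 0.03 in set 2. Mlxipl and Insig1, as regulators, were called within set 1 at -0.82 (adjusted p = 0.00105) and -0.67 (adjusted p = 0.00688), and set 2 gave 0.37 and 0.01.

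Dgat2 shows the split. It had 8.52, 8.55, 8.58, 8.36 and 9.41 in WT DEN, against 9.70, 9.80 and 8.45 in WT untreated. The untreated array of set 2 lies among the DEN arrays, and the pooled difference was -0.62 (SE 0.23, adjusted p = 0.134), against -1.21 within set 1 (adjusted p = 7.6e-06). Mlxipl had 6.28, 6.72, 6.39, 7.49 and 7.67 in WT DEN, against 7.33, 7.23 and 7.21 in WT untreated. Insig1 had 7.04, 6.60, 6.53, 6.65 and 7.68, against 7.35, 7.43 and 7.15. For both, the DEN arrays of set 1 are below all untreated ones and 1 or both of set 2 are above. Which of the sets represents WT liver was not tested.

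The lowest p in the pooled fit belonged to Hmgcs1 and Sc5d in the cholesterol arm and to Acaca and Thrsp in the fatty acid arm. Hmgcs1 had 7.02, 7.10, 7.47, 5.97 and 6.07 in WT DEN, against 7.59, 7.53 and 7.03 in WT untreated (-0.60, SE 0.19, adjusted p = 0.0836). Its DEN arrays are below the untreated arrays of their own set, with -0.37 in set 1 and -1.01 in set 2. Sc5d had 8.17, 8.36, 8.78, 8.41 and 8.68 in WT DEN, against 8.98, 8.84 and 8.97 in WT untreated, without overlap (-0.46, adjusted p = 0.162). Acaca had 6.24, 6.49, 6.66, 6.38 and 6.31 in WT DEN, against 7.00, 6.97 and 6.79 in WT untreated, also without overlap (-0.51, SE 0.16, adjusted p = 0.0695). Its second probe set was called at -0.54 (adjusted p = 0.0362). Thrsp was at -1.70 (SE 0.56, adjusted p = 0.091), with -3.01 within set 1 and 0.71 in set 2. Srebf1 (-0.04) and Srebf2 (0.02) were not called. Sc4mol (the sterol C4 methyl oxidase, now named Msmo1) and Pnpla3 were at 0.40 (adjusted p = 0.3) and 0.30 (adjusted p = 0.116).

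Of the other lists, 1 of 8 other sterol genes fell (Insig2, at -0.53, SE 0.14, adjusted p = 0.0363), 1 of 7 LXR targets fell (Abca1, at -0.55, SE 0.16, adjusted p = 0.0481), and 0 of 14 other lipogenic genes and 0 of 9 fasting genes passed. Of the endothelial markers, 1 of 10 fell, with a mean level of 6.25 to 6.59 in WT DEN, against 6.23 to 6.75 in WT untreated.

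The difference between the responses, DKO minus WT, was tested in the same fit. Of the fatty acid arm, 3 of 16 responded lower and 1 higher in DKO than in WT, of the cholesterol arm 1 lower and 0 higher, and of the regulators 1 lower. Among all genes 8.54% were lower and 1.36% higher (9.91% in all), and the medians were -0.36 in the fatty acid arm, -0.26 in the cholesterol arm and -0.03 over all genes.

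Acly differed most steadily. It had 5.73, 5.70, 5.84, 6.34 and 5.71 in WT DEN, against 5.63, 5.62 and 5.14 in WT untreated, so that DEN arrays are the higher ones in WT, and the lower ones in DKO. The difference between the responses was -1.11 (SE 0.23, adjusted p = 0.00366; -0.76 within set 1, adjusted p = 0.018), and no left-out array ended it. Fads2 had 8.97, 9.61, 9.45, 9.59 and 9.63 in WT DEN, against 10.00, 10.11 and 9.05 in WT untreated. Its responses differed by -1.53 (SE 0.35, adjusted p = 0.00692; -0.80 within set 1, adjusted p = 0.0418), and without WT untreated replicate 3 the adjusted p was 0.0503.

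The other calls rest on fewer arrays. Gpam had 6.02, 6.19, 5.99, 6.04 and 6.48 in WT DEN, against 6.62, 6.68 and 5.74 in WT untreated, and its responses differed by -0.76 (SE 0.23, adjusted p = 0.0366), with an adjusted p of 0.279 without WT untreated replicate 3. Srebf1 had 5.45, 5.75, 5.98, 5.75 and 6.03 in WT DEN, against 6.00, 5.91 and 5.58 in WT untreated, and its responses differed by -0.78 (SE 0.25, adjusted p = 0.0478; 0.225 without the same array). Ebp had 7.24, 6.92, 7.08, 6.22 and 6.30 in WT DEN, against 6.85, 7.21 and 5.61 in WT untreated, and its responses differed by -0.64 (SE 0.20, adjusted p = 0.0431; 0.206 without the same array). For Srebf1 and Ebp, 11 of 16 left-out arrays ended the call, and for Gpam 6. For all 3 that array is the lowest of its group. Within set 1, where 6.09% of all genes were lower and 1.27% higher (7.35% in all), 2 fatty acid genes were lower and 1 higher, and Gpam (-0.36), Srebf1 (-0.40) and Ebp (-0.37) were not called. Srebf2 (-0.37), Insig1 (0.29) and Mlxipl (-0.09) were not called in either fit. Fdft1 was at -0.68 (adjusted p = 0.0843), called within set 1 at -0.81 (adjusted p = 0.0239) and on its second probe set at -1.24 (adjusted p = 0.00653).

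Thrsp was the fatty acid gene whose response was higher in DKO, by 2.63 (SE 0.82, adjusted p = 0.0402). Its level already differed without DEN: DKO untreated had 4.73, 4.75 and 4.97, against 8.64, 8.47 and 5.47 in WT untreated. All 3 DKO arrays are lower than all WT arrays, and the third WT array, of set 2, lies nearer to DKO than to its own group. The difference without DEN was -2.87 (SE 0.65, adjusted p = 0.0232), or 7.30-fold lower in DKO, and -3.74 within set 1. After DEN, Thrsp had 4.72, 5.87, 5.60, 5.08 and 5.16 in DKO, against 6.23, 5.64, 4.75, 4.78 and 7.59 in WT, and these overlap. Leaving out 1 array ended the untreated call in 5 of 6 cases (up to an adjusted p of 0.207 without WT untreated replicate 1) and the call of the difference in 12 of 16 (up to 0.124 without the same array).

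Outside the 36 genes, 3 of 8 other sterol genes responded lower in DKO and 1 higher (Scap at -1.11, Mbtps1 at -1.03), and 5 of 14 other lipogenic genes lower and 0 higher (Agpat2 at -1.25). Endothelial markers responded lower in 6 of 10 and neutrophil and myeloid markers in 4 of 9, and their part was not tested.

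**Figure D3:**
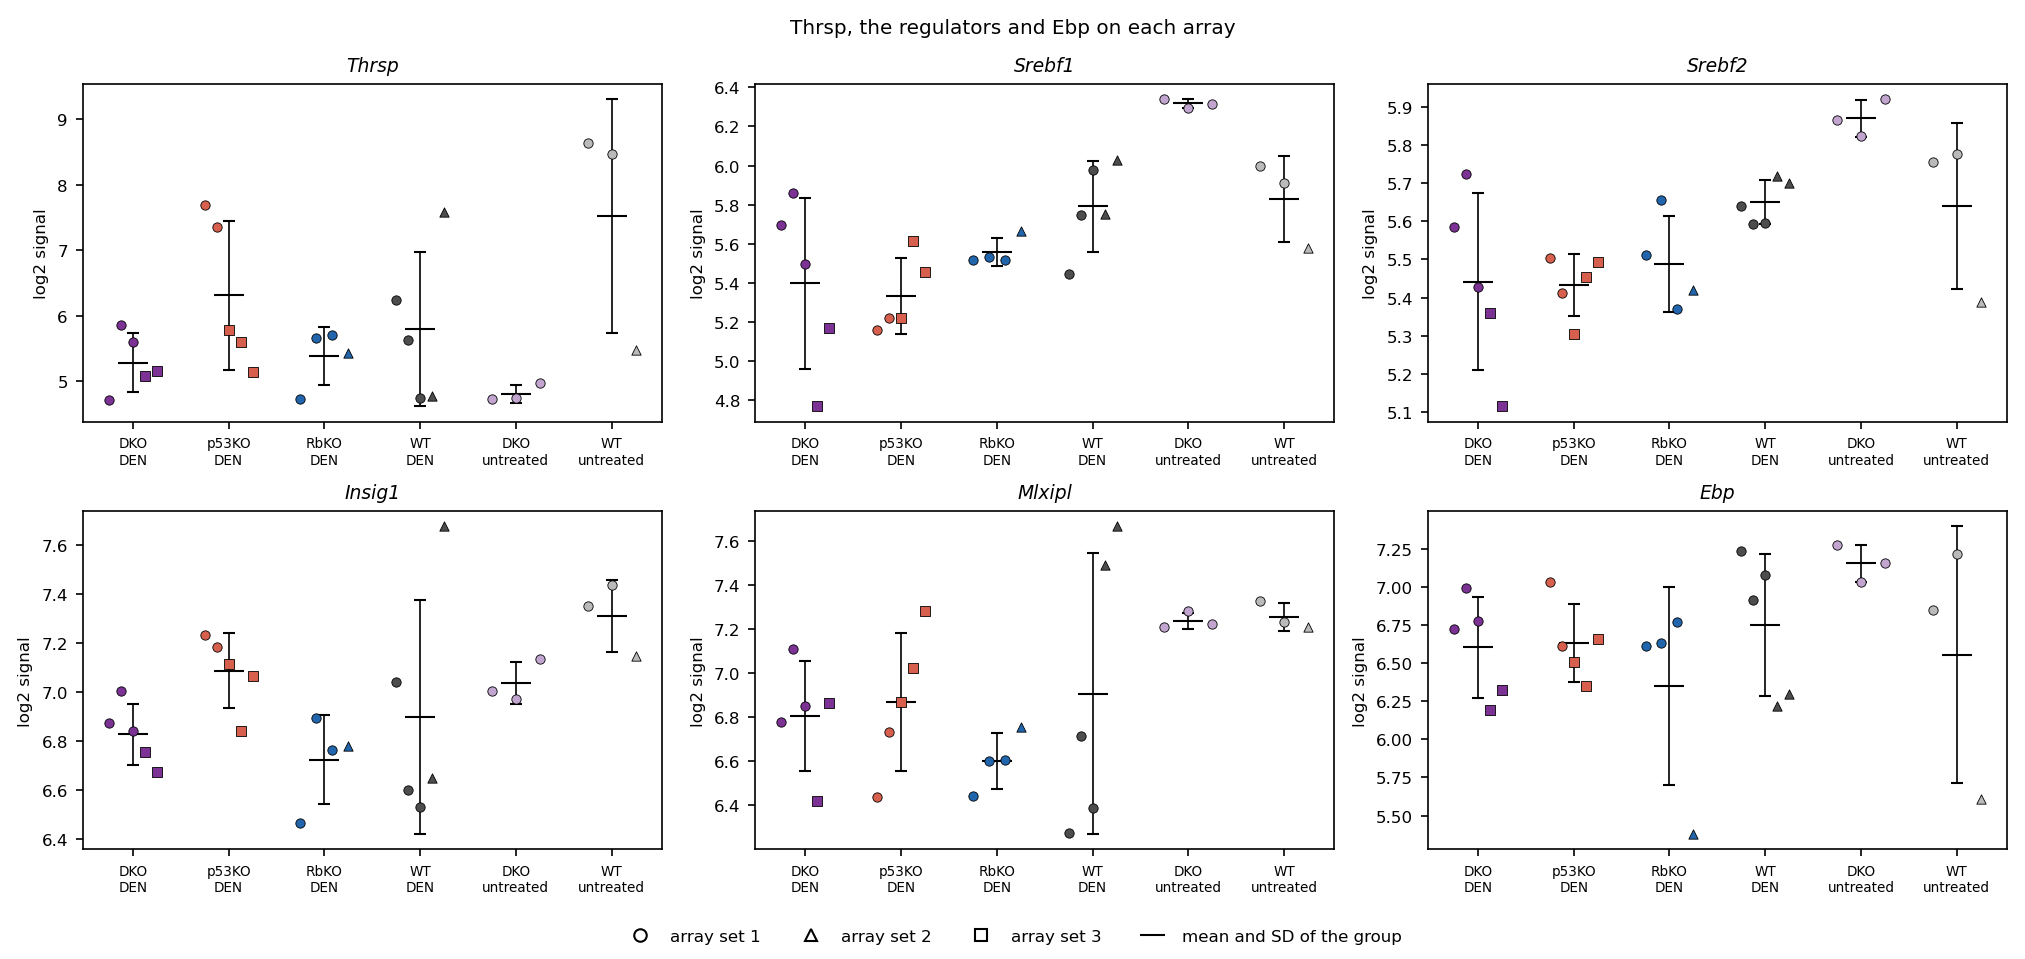
Log2 signal of Thrsp, Srebf1, Srebf2, Insig1, Mlxipl and Ebp on each array, by group; symbols give the array set, and bars the mean and SD. Thrsp has its lowest group mean in DKO untreated, and Srebf1 its highest.

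Without DEN, Thrsp was the only member that differed between DKO and WT in the fit over all sets. Among all genes 1.11% were called, 0.865% higher and 0.244% lower. In the cholesterol arm 0 of 16 passed (2, both higher, at an unadjusted p under 0.05). Fdft1, of which DKO untreated had 8.53, 8.38 and 8.54, against 7.71, 7.81 and 8.19 in WT untreated, was at 0.61 (SE 0.20, adjusted p = 0.154), and its second probe set was called at 0.98 (adjusted p = 0.025). Hmgcs1 was at 0.54 (adjusted p = 0.294). Both were called within set 1, at 0.72 (adjusted p = 0.00946) and 0.66 (adjusted p = 0.0151), where 3.79% of all genes were higher and 1.8% lower. Dgat2 was called lower within set 1 as well, at -0.47 (adjusted p = 0.0251). Pmvk had 5.02, 4.58 and 5.04 in DKO untreated, against 4.53, 4.68 and 3.62 in WT untreated (0.39, adjusted p = 0.45). Acacb had 4.28, 3.94 and 4.07, against 4.39, 4.60 and 4.40 (-0.29, adjusted p = 0.456), and Pklr was at 0.45 (adjusted p = 0.428). Srebf1 was at 0.50 (adjusted p = 0.283), Srebf2 at 0.20, Insig1 at -0.22 and Mlxipl at 0.17. Of 8 other sterol genes 1 was lower (Insig2, at -0.67). Neutrophil and myeloid markers differed here, with 3 of 9 higher in DKO, at 5.72 to 6.33 in DKO untreated, against 4.61 to 4.77 in WT untreated, and so did the clock gene Nr1d1, at 1.23 (SE 0.26, adjusted p = 0.014). Their part in these values was not tested.

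After DEN, 3 knockout groups were set against the same 5 WT arrays, so the differences share their reference values. In DKO, 4 of 16 fatty acid genes were lower and 0 higher, where 9.14% of all genes were lower and 2.69% higher (11.8% in all). In the cholesterol arm 2 of 16 were lower and 1 was higher, and 0 of 4 regulators were called. The medians were -0.25 and -0.10, against -0.03 over all genes. Within set 1, where 7.97% of all genes were lower and 2.88% higher (10.9% in all), 4 fatty acid and 2 cholesterol genes were lower and 1 regulator, Mlxipl, was higher (0.46, adjusted p = 0.027). In the fit over all sets Srebf1 was at -0.29, Srebf2 at -0.16, Insig1 at 0.07 and Mlxipl at 0.08, none called.

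Fads2 was lower in DKO DEN than in WT DEN by 1.20 (SE 0.24, adjusted p = 0.002; -0.67 within set 1). All 5 DKO arrays, listed above, are below the lowest WT array. In p53KO DEN it had 8.43, 7.89, 8.77, 8.96 and 8.96, at -1.06 against WT (SE 0.26, adjusted p = 0.0347; -1.19 within set 1), and in RbKO DEN 8.99, 8.95, 9.09 and 8.07, at -0.74 (SE 0.22, adjusted p = 0.0351; -0.34 within set 1, not called). The RbKO arrays overlap the lowest WT array, and 4 of 9 left-out arrays ended the RbKO call (up to an adjusted p of 0.296 without RbKO replicate 4). The p53KO call ended with 5 of 10 left-out arrays (up to 0.256 without p53KO replicate 2). Fads2 was called in 5 of the 9 comparisons, more than any other member.

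Acly was 1.69-fold lower in DKO DEN than in WT DEN (-0.75, SE 0.16, adjusted p = 0.00318; -0.56 within set 1), with all DKO arrays below all WT arrays. In p53KO DEN it had 5.19, 5.07, 4.98, 5.39 and 4.85 (-0.63 against WT, adjusted p = 0.0568), and in RbKO DEN 5.52, 5.41, 5.52 and 5.40 (-0.41, adjusted p = 0.0747). Both groups lie below all WT DEN arrays and miss the threshold, and p53KO was called within set 1 at -0.63 (adjusted p = 0.0123).

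Dgat2 was lower in DKO DEN by 0.84 (SE 0.23, adjusted p = 0.017; -0.56 within set 1). RbKO DEN had 7.76, 8.03, 8.04 and 7.98, at -0.75 against WT (SE 0.21, adjusted p = 0.0229; -0.60 within set 1), and p53KO DEN 8.07, 8.15, 8.03, 7.91 and 7.50, at -0.51 (adjusted p = 0.292). All arrays of the 3 knockout groups lie below all 5 WT arrays, a description given without the share of all genes that separate in this way. The RbKO call ended without RbKO replicate 1, RbKO replicate 4 or WT replicate 5, up to an adjusted p of 0.079. Gpam was lower in DKO DEN by 0.67 (SE 0.16, adjusted p = 0.00743; -0.53 within set 1), and stood at -0.36 in p53KO and -0.27 in RbKO, not called. Fads1 was at -0.67 in DKO DEN (adjusted p = 0.0697).

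In the cholesterol arm, Hsd17b7 and Sc4mol were lower in DKO DEN. Hsd17b7, the 3-keto reductase of sterol C4 demethylation, had 6.28, 6.08, 6.47, 6.38 and 6.41 in DKO DEN, against 7.48, 7.07, 6.83, 6.24 and 6.67 in WT DEN. All DKO arrays lie below 4 of the 5 WT arrays, the exception being replicate 4, from set 2, and the difference was -0.74 (SE 0.14, adjusted p = 0.00127; -0.85 within set 1). Sc4mol, the oxidase of the same step, had 5.74, 5.68, 5.51, 5.13 and 5.30 in DKO DEN, against 7.00, 6.28, 6.14, 4.62 and 5.28 in WT DEN. The overlap comes from the set 2 arrays, and the difference was -0.65 (SE 0.20, adjusted p = 0.0291; -0.83 within set 1), ended by 4 of 10 left-out arrays (up to 0.143 without WT replicate 1). Nsdhl, the third enzyme of the step, was at -0.21, not called. Idi1 was higher in DKO DEN, at 0.58 (SE 0.19, adjusted p = 0.0425), against 4.69, 5.01, 4.94, 4.88 and 4.83 in WT DEN, and 6 of 10 left-out arrays ended this call (up to 0.148 without DKO replicate 2). On its second probe set the difference was 0.44 and not called (adjusted p = 0.23). Ebp was at -0.41 (adjusted p = 0.0509).

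In p53KO DEN, Sqle, the squalene epoxidase, was the cholesterol gene that rose against WT, with 1 of 16 higher and 0 lower, and 1 of 16 fatty acid genes was lower (Fads2), where 0.708% of all genes were higher and 1.07% lower (1.78% in all). Sqle had 5.33, 4.84, 4.24, 4.26 and 4.85 in p53KO DEN, against 4.06, 4.27, 3.78, 3.69 and 3.77 in WT DEN. The groups overlap, with 2 p53KO arrays just below the highest WT array, and the difference was 0.83 (SE 0.20, adjusted p = 0.0328; 1.05 within set 1), with an adjusted p of 0.204 without p53KO replicate 1. The sexes are not labelled, and with the Xist signal in the fit it was 0.82 at an adjusted p of 0.0554. Within set 1 alone (2 p53KO arrays against 3 WT), 7 fatty acid genes were lower and 1, Thrsp, was higher, where 4.36% of all genes were lower and 1.55% higher. Thrsp had 7.69 and 7.35 on the set 1 p53KO arrays and 5.78, 5.60 and 5.14 on those of set 3, so that its pooled difference of 1.01 was not called. The medians of the pooled fit were 0.07 in the cholesterol arm and -0.28 in the fatty acid arm, against -0.01 over all genes. Insig1 was at 0.37, Srebf1 at -0.31, Srebf2 at -0.13 and Mlxipl at 0.12, all not called. Idi1 was at 0.47 (adjusted p = 0.227).

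In RbKO DEN, 2 of 16 fatty acid genes (Dgat2 and Fads2) and 1 of 16 cholesterol genes were lower against WT and 1 cholesterol gene higher, where 6.13% of all genes were lower and 5.23% higher (11.4% in all). Idi1 had 5.55, 5.63, 5.36 and 5.35 in RbKO DEN, above all 5 WT DEN arrays, at 0.61 (SE 0.18, adjusted p = 0.0262; 0.63 within set 1, not called), and 5 of 9 left-out arrays ended this call (up to 0.0765 without RbKO replicate 4). Its second probe set was at 0.60 (adjusted p = 0.0639). Ebp had 6.61, 6.63, 6.77 and 5.38 in RbKO DEN, at -0.57 (SE 0.13, adjusted p = 0.00699; -0.40 within set 1, not called), and without replicate 4, the low array, the adjusted p was 0.0832. Within set 1, where 3.34% of all genes were called, 0.959% higher and 2.38% lower, Dgat2 was the only member called. Mvd had 3.94, 4.02, 4.05 and 4.18 in RbKO DEN, against 4.25, 4.39, 4.38, 4.31 and 4.55 in WT DEN, without overlap (-0.32, adjusted p = 0.103). Scd1 had 6.34, 5.89, 5.81 and 5.38, against 6.19, 7.01, 6.65, 6.82 and 5.56 (-0.66, adjusted p = 0.0642). Srebf1 was at -0.23, Srebf2 at -0.17, Mlxipl at -0.22 and Insig1 at -0.15, all not called. The medians were -0.11 in the cholesterol arm and -0.25 in the fatty acid arm, against -0.04 over all genes.

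Of 10 endothelial markers, 8 were lower in DKO DEN, 0 in p53KO DEN (6 within set 1) and 1 in RbKO DEN, with mean levels of 5.62 to 5.93, 5.73 to 6.16 and 6.00 to 6.37, against 6.25 to 6.59 in WT DEN. Their part in the lipid genes was not tested. Of the other lists in DKO DEN against WT DEN, 4 of 14 other lipogenic genes were lower (Agpat2 at -0.70, SE 0.15), 3 of 8 other sterol genes were lower and 1 higher (Mbtps1 at -0.90, SE 0.16), 2 of 7 LXR targets were lower and 4 of 9 fasting genes were lower (Pck1 at -1.06, SE 0.21). In p53KO DEN, 1 other sterol gene (Mbtps1, at -0.67) and 0 other lipogenic genes were lower. In RbKO DEN, 2 other lipogenic genes were lower (Agpat2 at -0.67), and 1 other sterol gene was lower (Scap, at -0.57) and 1 higher.

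**Figure D4:**
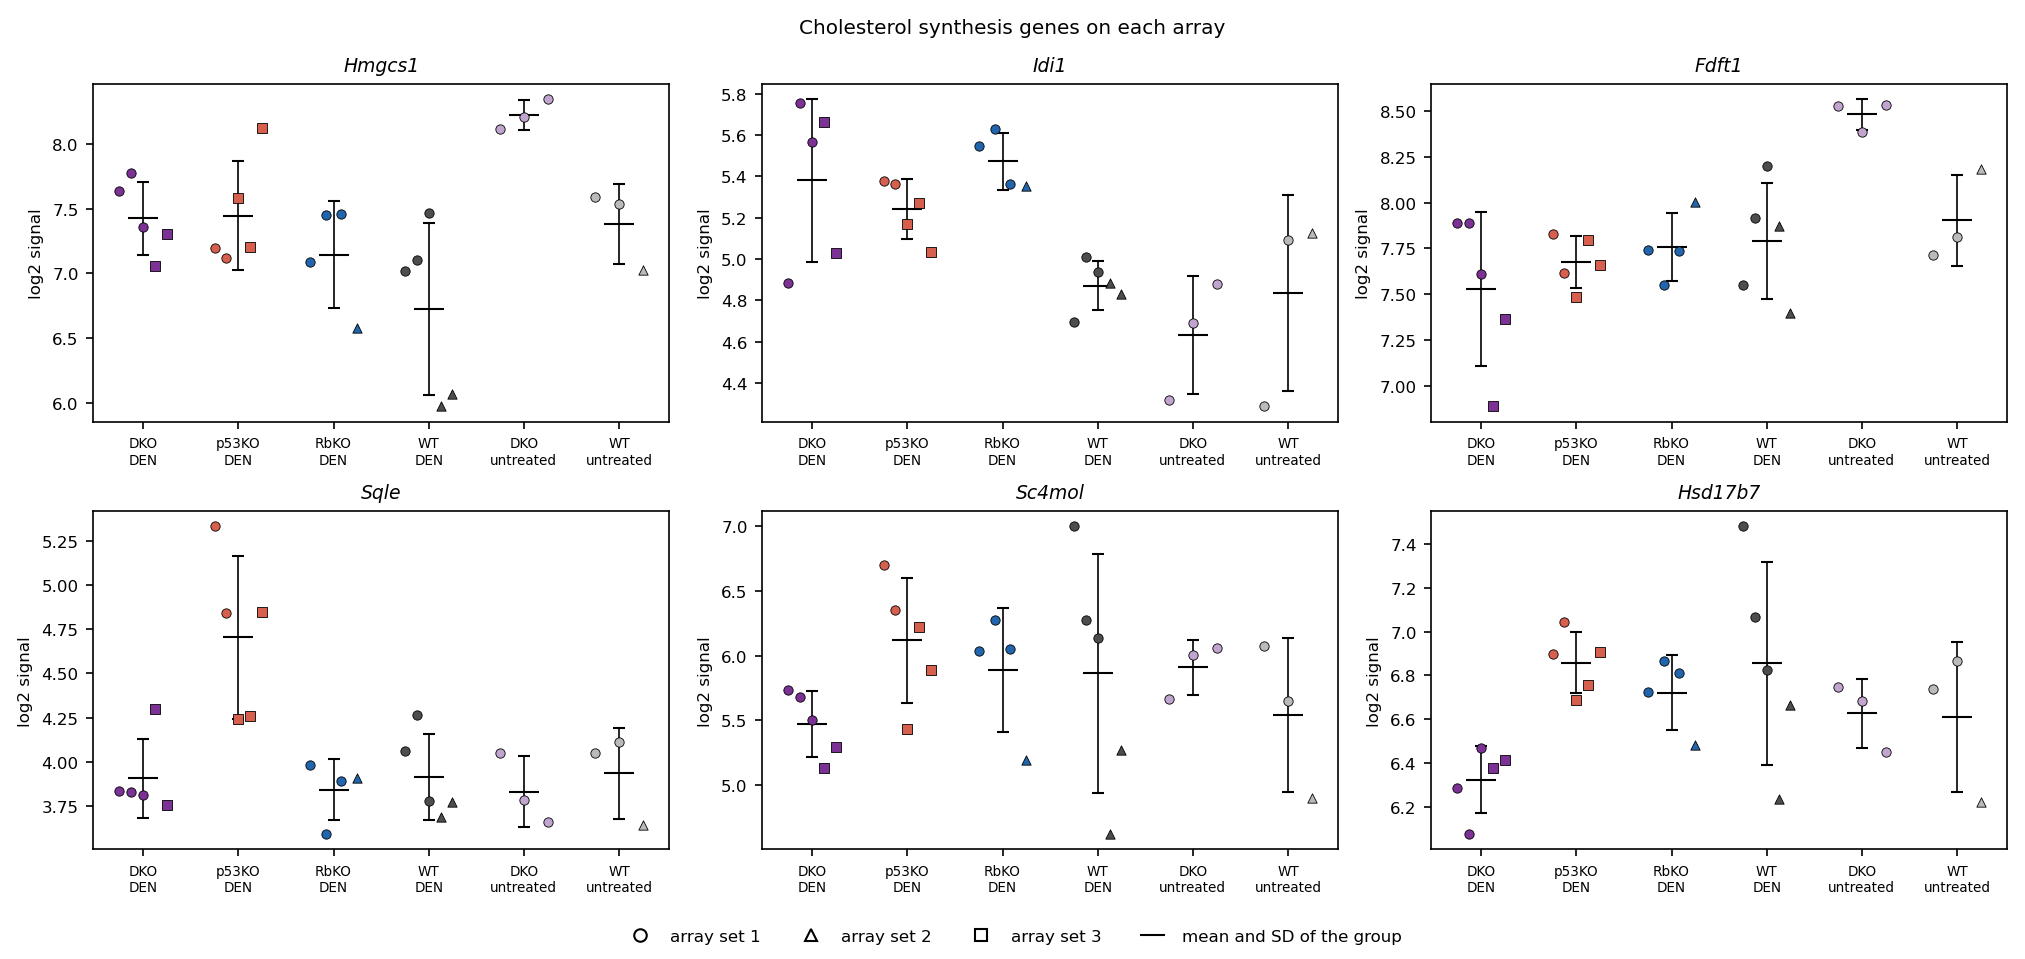
Log2 signal of Hmgcs1, Idi1, Fdft1, Sqle, Sc4mol and Hsd17b7 on each array, by group; symbols give the array set, and bars the mean and SD. Sqle has its highest group mean in p53KO DEN, Hsd17b7 and Sc4mol have their lowest DEN group mean in DKO, and Idi1 is lower in WT DEN than in RbKO DEN without overlap.

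DKO DEN was also compared with each single knockout. Against p53KO DEN, 3 of 16 cholesterol genes were lower and 0 higher. Among all genes 1.51% were lower and 0.357% higher (1.87% in all). Of the fatty acid arm 0 of 16 passed (3 at an unadjusted p under 0.05, 2 lower and 1 higher). Sqle had 3.83, 3.83, 3.81, 4.30 and 3.75 in DKO DEN, and all but replicate 4 lie below every p53KO DEN array. It was 1.79-fold lower (-0.84, SE 0.16, adjusted p = 0.00812), with -1.26 within set 1 and -0.42 within set 3. Hsd17b7 had 6.90, 7.04, 6.69, 6.76 and 6.91 in p53KO DEN, above all DKO DEN arrays (-0.54, SE 0.12, adjusted p = 0.0205; -0.70 within set 1 and -0.39 within set 3). Sc4mol had 6.70, 6.35, 5.43, 6.22 and 5.89 in p53KO DEN (-0.76, SE 0.17, adjusted p = 0.0207; -0.88 within set 1 and -0.63 within set 3). The call of Hsd17b7 ended with 2 of 10 left-out arrays (up to an adjusted p of 0.0727 without p53KO replicate 2) and that of Sc4mol with 3 (up to 0.0834 without p53KO replicate 1).

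The fatty acid arm differed between the 2 sets. Within set 1, where its median was 0.06, 4 genes were called higher in DKO and 1 lower, against 2.37% of all genes called higher and 2.5% lower (4.87% in all), with Elovl5 at 1.39 and Thrsp at -2.12. Within set 3, 13 of 16 had a difference below 0 and the median was -0.33, with Elovl5 at -0.85 and Thrsp at -0.39, and no test was run there. Me1 was at 0.44 in the pooled fit (adjusted p = 0.138), with 7.77, 7.75, 7.93, 7.08 and 7.62 in DKO DEN, against 7.05, 6.98, 7.12, 7.53 and 7.17 in p53KO DEN. The regulators were not called, from -0.30 (Insig1) to 0.02 (Srebf1).

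Against RbKO DEN, 0 of 16 cholesterol and 0 of 16 fatty acid genes passed in limma (2 and 2, all lower, at an unadjusted p under 0.05). Among all genes 1.03% were called, 0.144% higher and 0.884% lower. Hsd17b7 was at -0.52 (SE 0.14, adjusted p = 0.0692), with 6.72, 6.87, 6.81 and 6.48 in RbKO DEN, all above the DKO DEN arrays. Sc4mol had 6.04, 6.28, 6.05 and 5.19 in RbKO DEN (-0.50, adjusted p = 0.248). Gpam had 5.83, 5.86, 5.89 and 5.98 in RbKO DEN (-0.39, adjusted p = 0.268), and Acly was at -0.35 (adjusted p = 0.337). Mlxipl (0.30), Insig1 (0.22), Srebf1 (-0.06) and Srebf2 (0.01) were not called.

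**Figure D5:**
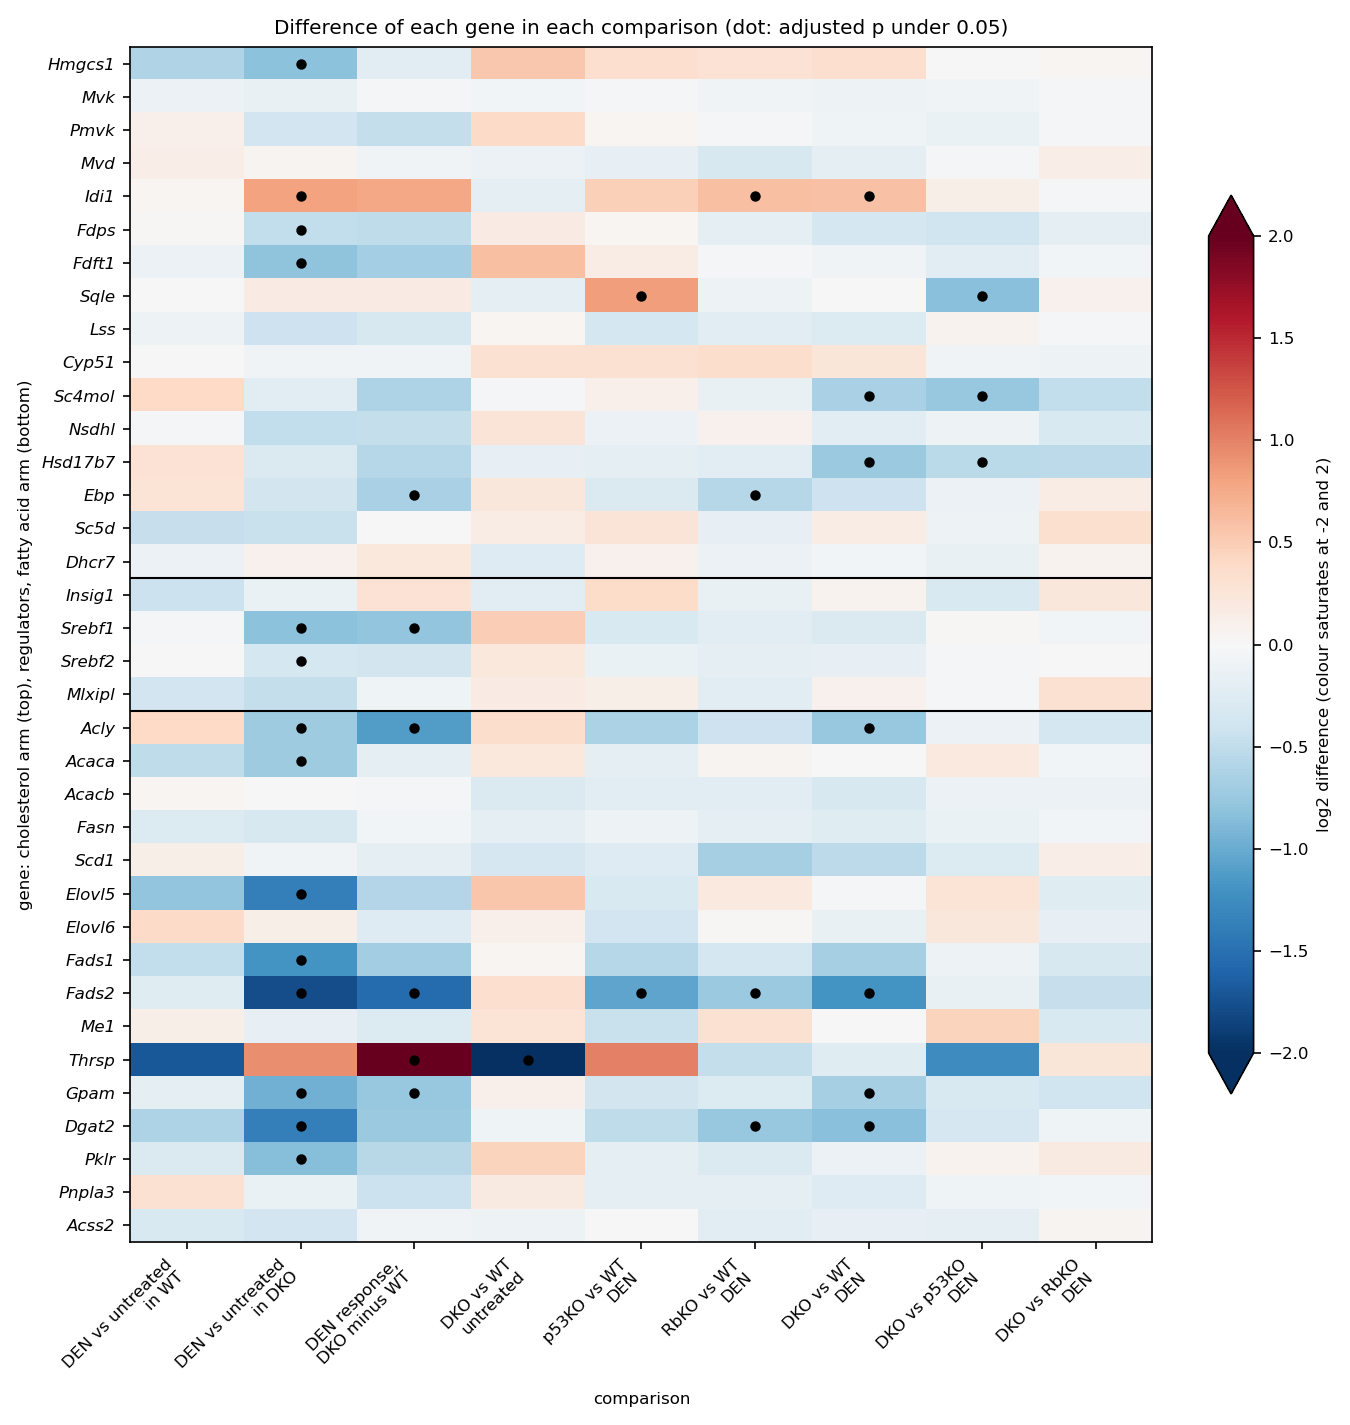
Log2 difference of each of the 36 genes (rows: cholesterol arm, regulators, fatty acid arm) in each of the 9 comparisons (columns), with the first-named group minus the second; a dot marks an adjusted p under 0.05. The DEN comparison in DKO holds the most dots, and Fads2 has dots in 5 columns.

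Over the 9 comparisons, which share arrays, 19 of the 36 genes were called at least once, in 37 pairs of gene and comparison, and 17 were never called in the fit over all sets. Those 17 were Mvk, Pmvk, Mvd, Lss, Cyp51 (lanosterol demethylase), Nsdhl, Sc5d and Dhcr7 (the last reductase of cholesterol synthesis) in the cholesterol arm, Acacb, Fasn, Scd1, Elovl6, Me1, Pnpla3 and Acss2 in the fatty acid arm, and the regulators Insig1 and Mlxipl. Of them, Lss, Fasn, Me1, Acss2, Insig1 and Mlxipl were called in 1 or more comparisons within set 1. Fasn, a classic SREBP-1c target, stayed between 4.38 and 5.26 on all arrays and Sqle between 3.59 and 5.33, with the filter on dim probe sets at 3.33.

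After additive group and set terms were removed, the median correlation was higher among the fatty acid genes than among the cholesterol genes. Responses that differed between sets, such as that of the fatty acid arm to DEN in WT, stay in these values. Their part was not tested. The median Pearson correlation over the 25 arrays was 0.25 within the fatty acid arm (120 pairs, 89 above 0), -0.01 within the cholesterol arm (120 pairs, 58 above 0) and 0.03 between the arms (256 pairs). Srebf1 had a median correlation of 0.43 with the fatty acid genes and 0.21 with the cholesterol genes, and Mlxipl one of 0.35 and -0.00. These correlations share the arrays, their RNA quality and their normalization, and are given as a description, without a value over all genes.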

How the data were processed

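Per the labels' protocols, liver RNA was labelled with the WT-Ovation Pico amplification kit. There are 25 arrays, of an Affymetrix mouse gene design. The deposited values are log2 signals that the authors normalized by RMA in Affymetrix Expression Console 1.1, per the submitters' processing notes, and they were used as deposited. RMA normalizes the arrays to each other, so changes are relative to the other genes. The deposited values still did not share 1 distribution. With quantile normalization again, 16.6% of genes were called for DEN in DKO, against 21% in the fit reported.

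Of 35555 probe sets, the array annotation lists 23409, 21789 of them with 1 symbol and 1620 with several, which were not named. Each of the 19938 genes took its probe set with the highest mean, and genes with a mean under the 20th percentile (3.33) were left out, which leaves 15951. Groups came from the labels' status and treatment fields. Differences were tested in limma 3.58.1 (R 4.3.3) over all 6 groups with the array set, read from the array names, as a fixed term, and p-values were adjusted by Benjamini-Hochberg over the 15951 genes, with calls at 0.05. On simulated data for DEN in DKO (15951 genes), 67, 67 and 66 genes were changed by 0.5, 1 and 2 on the log2 scale. The fit recovered 32.8%, 94% and 100% of them. The other genes had no group difference, and the noise was independent between genes. In the real comparison 21% of genes were called, so these rates need not hold for it. Alternatives covered the set term, normalization, weights, filter, probe sets, an Xist covariate (sexes are not given) and each array left out. The fit without set 3, the other probe set of Idi1, Fdft1, Acaca and Me1, and a block for title numbers shared between groups were chosen after seeing the data.

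The members and lists were chosen with earlier results of these data known. Values are given in each comparison for up to 5 called members of each arm by p, or up to 2 with the lowest p where none was called, and for Srebf1, Srebf2, Insig1 and Mlxipl. Arrays are given from among the members with the 3 lowest p of their arm in any comparison and these 4. The arrays of Fads1, Elovl5 and Fdps, and the values of called members beyond the 5, were added after they were seen. Up to 3 genes of each other list are named in order of p. Sc4mol is the name in the annotation for Msmo1. Some genes of these pathways are not analysed here. Promoters are from RefSeq.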

Additional observations from a re-analysis of the deposited data

Results flagged for a closer look

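In 8 of 152 tests, each of 1 gene or of the mean of an arm within a group of 4 or 5 arrays, 1 array lay far from the others by Dixon's criterion, where chance gives about 1 in 20. RbKO DEN replicate 4, the only RbKO array of set 2, accounts for 3: Ebp at 5.38 (others 6.61 to 6.77), Fads2 at 8.07 (others 8.95 to 9.09) and Srebf1 at 5.67 (others 5.52 to 5.53). In WT DEN, Acly was 6.34 on replicate 4 (others 5.70 to 5.84), Dgat2 9.41 on replicate 5 (others 8.36 to 8.58) and Fads2 8.97 on replicate 1 (others 9.45 to 9.63). Sqle was 4.30 on DKO DEN replicate 4 (others 3.75 to 3.83), and Acss2 4.2 on p53KO DEN replicate 3 (others 4.71 to 4.80).

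The response to DEN differed between DKO and WT, by the test of the difference itself, for Acly (-1.11), Fads2 (-1.53), Gpam (-0.76), Srebf1 (-0.78), Ebp (-0.64) and Thrsp (2.63). Of 15 alternatives, 0 ended this call for Acly, 1 for Fads2, 7 for Thrsp, 9 for Gpam, and 10 each for Srebf1 and Ebp. Leaving out 1 of the 16 arrays ended it in 0 cases for Acly, 1 for Fads2, 6 for Gpam, 11 each for Srebf1 and Ebp, and 12 for Thrsp.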

How the results depend on the processing

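Counts of called genes are given as cholesterol and fatty acid genes out of 16 each. DEN in DKO gave 4 and 8 in the fit reported, and 3 to 7 and 8 to 9 with 1 array left out. It gave 7 cholesterol genes with array weights or without set 2. Over 926 alternative values of the 37 called results, 744 stayed on their side of the threshold, 182 did not, and 0 changed sign. With 1 array left out the ranges were 0 to 1 and 0 to 4 for DEN in WT, 0 to 2 and 2 to 4 for the difference of responses, 0 and 0 to 1 for untreated DKO against WT, 0 to 1 and 0 to 2 for p53KO, 0 to 3 and 0 to 3 for RbKO and 1 to 4 and 4 to 5 for DKO against WT after DEN, and 1 to 3 and 0 to 1 for DKO against p53KO. For DKO against RbKO they were 0 and 0.

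Counts of the other settings follow where they moved by over 1.5 times. The share of all genes called also differed by setting. With array weights it was 12.2% for DEN in WT (3.99% in the fit reported) and 9.87% for untreated DKO against WT (1.11%). In set 1 alone these shares were 11% and 5.59%. With the groups of the comparison alone, untreated had 6.97% and DKO against WT after DEN 3.28% (11.8% in the fit reported). With no set term, RbKO had 2.44% (11.4%). With array weights, DEN in WT gave 1 and 8, the difference of responses 3 cholesterol genes, untreated DKO against WT 2 and 2, p53KO 3 fatty acid genes, DKO against p53KO 2 fatty acid genes and DKO against RbKO 1 cholesterol gene. In set 1 alone, DEN in WT gave 9 fatty acid genes, untreated 2 and 2, p53KO 8 fatty acid genes, RbKO 0 and 1, and DKO against p53KO 5 fatty acid genes. Without set 2, DEN in WT gave 4 fatty acid genes, the difference of responses 2, untreated 1 cholesterol gene, p53KO 0 and 0, RbKO 0 and 1, and DKO against p53KO 1 fatty acid gene. With no set term, the difference gave 0 and 2, untreated 0 fatty acid genes, p53KO 3 fatty acid genes, RbKO 0 and 0, and DKO against p53KO 0 cholesterol genes. With the set as a random block, the difference gave 0 and 2, p53KO 2 fatty acid genes and RbKO 1 cholesterol gene. With the groups of the comparison alone, the difference gave 0 and 2, untreated 2 and 3, p53KO 2 fatty acid genes, RbKO 1 fatty acid gene, and DKO against WT after DEN 1 and 1. With Xist as a covariate, the difference gave 0 and 2, untreated 0 fatty acid genes, p53KO 0 cholesterol genes and RbKO 1 fatty acid gene. Quantile normalization again gave 0 cholesterol genes for the difference and 0 fatty acid genes for p53KO. The 40th percentile filter (4.15) gave 0 and 2 for p53KO. It left out Sqle (mean 4.05), the cholesterol gene called for p53KO in the fit reported, and Lss (mean 4.09), so neither was tested there. A trended robust fit gave 0 fatty acid genes untreated. The mean of probe sets gave 1 fatty acid gene for DEN in WT, 2 cholesterol genes for the difference and 1 untreated. Of the alternatives chosen after seeing the data, leaving out set 3 gave 1 and 2 for DEN in WT, 0 and 2 for the difference, 5 fatty acid genes for p53KO, and 1 and 2 for DKO against p53KO. The other probe set gave 1 fatty acid gene for DEN in WT, 2 cholesterol genes for the difference, 1 untreated and 1 for RbKO. Fewer arrays enter the settings that leave out a set, and Sqle was not tested under the 40th percentile filter. For the other settings the cause was not tested. The titles carry numbers that run through the arrays and are not said to pair samples. DKO DEN and p53KO DEN share 16 and 18, across sets 1 and 3, and the deviations of these pairs correlated at 0.21 and 0.20 over 15951 genes. With the title number as a replicate block, an alternative also chosen after seeing the data, DKO against p53KO gave 3 cholesterol and 0 fatty acid genes. No paired analysis was possible in the other comparisons because their groups share fewer than 2 title numbers. The set 2 titles put an R before the number and were read as numbers of their own. WT DEN replicates 3 and 4 are titled 09_WT_TX and R09_WT_TX, and whether they come from the same sample is not stated.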
